A study of Mus musculus with 8 samples.

Results

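The miR-34 family was followed in obstructed mouse kidney through its 6 mature miRNAs, mmu-miR-34a-5p, mmu-miR-34a-3p, mmu-miR-34b-5p, mmu-miR-34b-3p, mmu-miR-34c-5p and mmu-miR-34c-3p, where mmu marks mouse and is dropped below. The members were chosen by name among the 1881 mouse miRNAs on the array, with earlier results of these data known, and all 6 were on it. Whole kidney tissue of male C57BL/6 mice, 8 weeks old, was taken 7 days after surgery that blocked 1 ureter (unilateral ureteral obstruction, UUO) or after a sham operation. The Sham group held the samples numbered 1, 2, 3 and 8 and the UUO group those numbered 1 to 4, each on 1 array of an Agilent 1-colour miRNA slide. No genetic change or drug was named for either group, and whole tissue mixes all cell types of the kidney. The labels do not say in words that each sample came from its own mouse, so the p-values measure the spread between these samples.

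miR-34 miRNAs bind mRNAs through a short seed at their 5′ end and lower the output of genes that drive the cell cycle and cell survival. miR-34a has a gene of its own and is a direct transcriptional target of the tumour suppressor p53, a factor activated by DNA damage. miR-34b and miR-34c come from 1 shared primary transcript, which p53 also activates, and together with the related miR-449 miRNAs they are known for their abundance in multiciliated cells, where they promote the building of motile cilia. In the kidney, p53 activity in injured tubule cells is a well-known part of the response to damage.

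The mature sequences show why the members fall into groups, and are printed 5′ to 3′ with the seed, bases 2 to 8, in capitals. RefSeq sequences on build GRCm38.p6 were matched for 5 of the 6 members, and miR-34c-5p was named only.
miR-34a-5p: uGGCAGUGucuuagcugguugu
miR-34b-5p: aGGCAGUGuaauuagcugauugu
miR-449a-5p: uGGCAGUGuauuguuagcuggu
miR-34a-3p: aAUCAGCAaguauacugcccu
miR-34b-3p: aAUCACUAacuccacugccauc
miR-34c-3p: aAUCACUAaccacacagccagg
The 5p arms of miR-34a and miR-34b carry the same seed, GGCAGUG, as does miR-449a-5p. The 3p arms of miR-34b and miR-34c share a different seed, and that of miR-34a-3p differs from both.

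The hairpin precursors place the measured arm in its locus, and the capitals mark the bases complementary to the longer array probe of each 5p arm.
Mir34a: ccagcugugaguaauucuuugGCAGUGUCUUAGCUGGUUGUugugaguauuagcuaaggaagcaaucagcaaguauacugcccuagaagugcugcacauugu
Mir34b: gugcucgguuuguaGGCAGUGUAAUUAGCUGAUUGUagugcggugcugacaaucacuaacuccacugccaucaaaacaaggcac
Mir34c: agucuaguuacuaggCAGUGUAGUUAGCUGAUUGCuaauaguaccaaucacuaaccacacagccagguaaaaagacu
The Mir34a hairpin lies on the plus strand at chr4:150068454-150068555 (GRCm38.p6) and overlaps no other RefSeq gene. The Mir34b hairpin at chr9:51103562-51103645 and the Mir34c hairpin at chr9:51103034-51103110 lie on the minus strand, 451 bases apart, and overlap the RefSeq genes Hoatz and Btg4. The seed string GGCAGUG occurs 1 time in each of the 3 hairpins. Counted from the base before that string, Mir34b and Mir34c differ over the first 22 bases by 1 substitution, A11G, with the Mir34b base first, whereas Mir34b and Mir34a differ at 11 of 22.

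Each arm had 2 probes that differ by 1 base at the 3′ end, here in capitals for the longer probe of each 5p arm.
miR-34a-5p longer probe: acaaccagctaagacactgC
miR-34b-5p longer probe: acaatcagctaattacactgcC
miR-34c-5p longer probe: gcaatcagctaactacactG
The longer miR-34a-5p probe is listed on the files' build, mm9, at chr4:149442585-149442603, and the longer miR-34c-5p probe at chr9:50911155-50911173. The files list the miR-34b probes as unmapped. The targets of the longer miR-34b-5p and miR-34c-5p probes matched the hairpin of the other with 2 mismatches, and cross-hybridization between them was not tested. The target of the longer miR-34a-5p probe had at least 9 mismatches to either.

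The 5p arms of the miR-34b and miR-34c locus rose in obstructed kidneys, and miR-34a-5p did not pass the test. Signals below are log2 of the background-subtracted spot signal divided by the array's 75th percentile over detected probes. Changes are UUO minus Sham on that scale, fitted with limma across the 408 miRNAs detected on at least 4 of 8 arrays and called at a Benjamini-Hochberg adjusted p under 0.05. A miRNA was represented by its brightest probe, and detection of a probe required that over 50% of its spots passed the scanner software's test against background. Signals under −4.89 were raised to that floor, the dimmest detected probe of the array (Sham 2) where that level was highest. Levels are compared within a probe only. In bulk tissue, a change in the number of cells of a type and a change in RNA per cell cannot be told apart. Before scaling, that percentile was 394 to 413 in the Sham arrays and 435 to 482 in the UUO arrays. Between 720 and 800 of 4415 probes were detected per array, and 0 spots were saturated. Negative control spots on Sham 8 had an SD of 10.8 signal units, against 2.20 to 2.56 on the other arrays. The 8 arrays shared 1 slide and 1 scan, with all Sham arrays in row 1 and all UUO arrays in row 2, so slide row and surgery cannot be told apart.

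mmu-miR-34c-5p, a product of the locus tied to multiciliated cells, was at −4.14, −4.11, −4.21 and −3.94 in Sham 1, 2, 3 and 8. It was at −2.95, −2.81, −2.98 and −2.92 in UUO 1 to 4. Every UUO array lay above every Sham array, and the lowest UUO value was 1.94-fold above the highest Sham value. The mean rose 2.27-fold, a log2 change of 1.18 ± 0.07 (SE, n = 4 per group, limma adjusted p = 2.05e-06), with a 95% interval of 2.03-fold to 2.54-fold. In the unscaled signal of the same probe, the mean was 23.7 ± 2.22 (SD, n = 4) for Sham arrays, and for UUO arrays it was 61.5 ± 2.17 (SD, n = 4). The shorter probe was detected on 1 of 4 Sham arrays and on 4 UUO arrays and stood at the floor on Sham 1, 2 and 3. It entered the test only through the UUO arrays, so its call adds no support and its fitted change, which depends on the floor, is not given.

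mmu-miR-34b-5p, its partner in the shared transcript, was at −2.84, −3.04, −3.06 and −2.74 in Sham 1, 2, 3 and 8. It was at −2.14, −1.99, −2.18 and −2.10 in UUO 1 to 4. The groups again did not overlap, with the lowest UUO value 1.47-fold above the highest Sham value. The mean rose 1.76-fold, a log2 change of 0.82 ± 0.09 (SE, n = 4 per group, limma adjusted p = 5.98e-05), with a 95% interval of 1.54-fold to 2.02-fold. Its shorter probe, detected on all 8 arrays, gave a larger change of 1.01 ± 0.08 (SE, limma adjusted p = 1.16e-05), or 2.02-fold. The unscaled signal of the longer probe averaged 53.9 ± 6.90 (SD, n = 4) over Sham arrays, and over UUO arrays it averaged 108 ± 4.33 (SD, n = 4).

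mmu-miR-34a-5p, the p53 target with its own gene, was at 1.70, 1.13, 1.15 and 1.87 in Sham 1, 2, 3 and 8. It was at 1.32, 1.38, 1.18 and 1.33 in UUO 1 to 4. All UUO values lay within the Sham range, between the pair Sham 2 and 3 below and the pair Sham 1 and 8 above. The log2 change was −0.16 ± 0.17 (SE, n = 4 per group, limma adjusted p = 0.435), with a 95% interval from −0.56 to 0.24, or 0.677-fold to 1.18-fold of Sham. The shorter probe gave the same order of arrays in Sham and a change of −0.13 ± 0.16 (SE, limma adjusted p = 0.505).

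**Figure D1:**
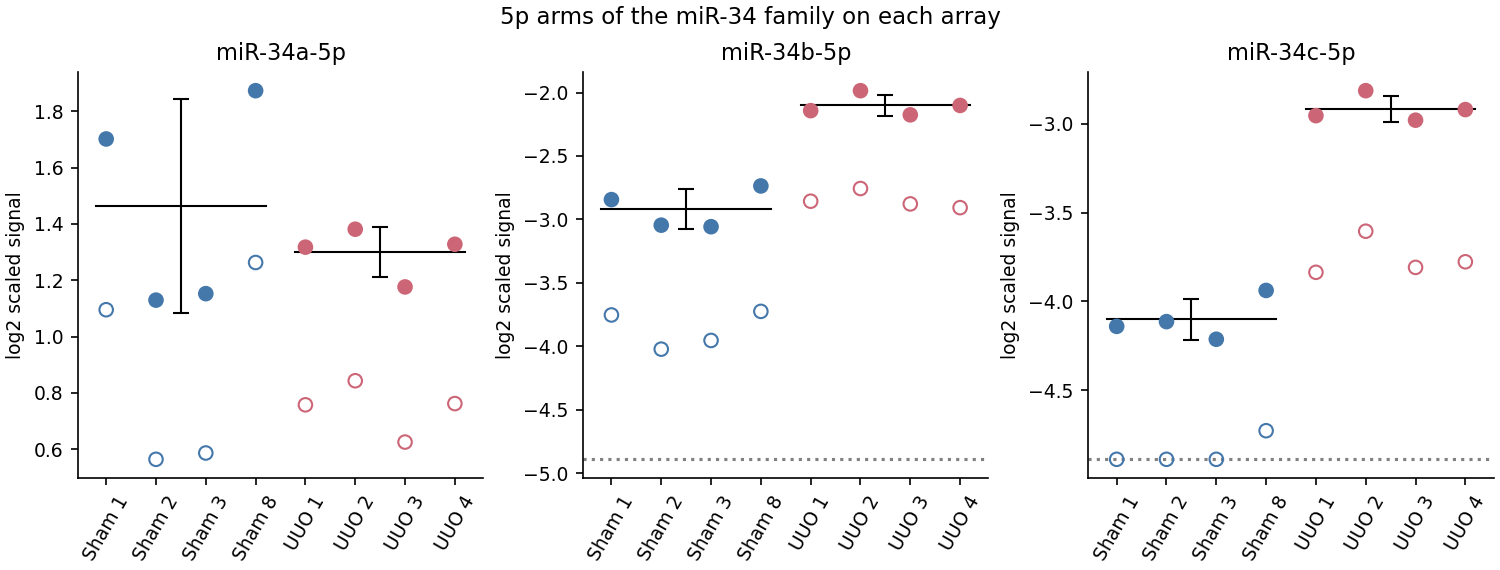
Log2 scaled signal of miR-34a-5p, miR-34b-5p and miR-34c-5p on each array, Sham in blue and UUO in red. Filled points are the longer, brighter probe and open points the shorter one; bars give mean and SD (n = 4) of the longer probe, and the dotted line marks the floor of −4.89. Within each probe, the UUO points of miR-34b-5p and miR-34c-5p lie above all Sham points, while those of miR-34a-5p fall inside the Sham range.

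Of the 3 tested members 2 were called, both higher, where 67.4% of all 408 tested miRNAs were called, 39.7% higher and 27.7% lower. The members' share is near that background and is no result about the family. UUO lay above every Sham array for 35% of tested miRNAs, and the median log2 change was 0.06. Of the 6 probes of the 5p arms, 5 were detected on all 8 arrays, and of these 3 were called higher and 0 lower, against 41.1% and 27.2% of the 771 tested probes. In order of log2 change miR-34c-5p ranked 40 and miR-34b-5p 62 of 408, and miR-34a-5p ranked 284. A called rise of at least 2-fold was found for 12.5% of tested miRNAs, and miR-34c-5p was among them.

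**Figure D2:**
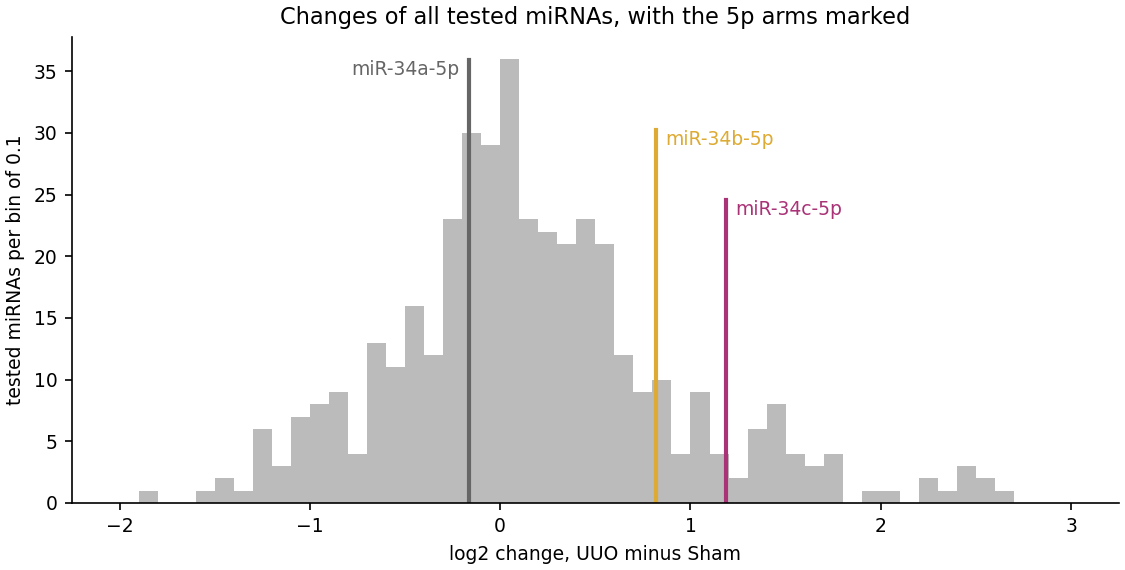
Number of tested miRNAs per bin of 0.1 in log2 change (UUO minus Sham), with the 3 tested members drawn as lines. miR-34c-5p at 1.18 and miR-34b-5p at 0.82 stand in the upper part of the distribution, and miR-34a-5p at −0.16 stands near its middle.

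The change of the miR-34b and miR-34c locus was then set against that of miR-34a within each array, where a scaling factor cancels. Relative to the mean of the Sham arrays, the log2 difference of miR-34c-5p and miR-34a-5p was −0.28, 0.32, 0.20 and −0.25 in Sham 1, 2, 3 and 8. It was 1.29, 1.37, 1.41 and 1.32 in UUO 1 to 4. The UUO values were tightly grouped and lay above all Sham values. miR-34c-5p thus changed by 1.35 ± 0.16 (SE) more than miR-34a-5p on the log2 scale (exact permutation test, two-sided, p = 0.0286, adjusted p = 0.0286 over 3 comparisons, n = 4 per group). This is the smallest p that 70 splits of 4 against 4 allow.

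For miR-34b-5p against miR-34a-5p the values relative to Sham were −0.16, 0.21, 0.17 and −0.22 in Sham 1, 2, 3 and 8. They were 0.92, 1.02, 1.03 and 0.95 in UUO 1 to 4. The groups did not overlap, and miR-34b-5p changed by 0.98 ± 0.11 (SE) more than miR-34a-5p (exact permutation test, adjusted p = 0.0286, n = 4 per group). With normexp background correction, which adds an offset of 50 to every spot, these differences were smaller, 0.50 and 0.53 (exact permutation test, adjusted p = 0.0429, n = 4 per group). All pairings of probes detected on all arrays were also compared, a check chosen after the data were seen. The difference was 1.31 to 1.35 for miR-34c-5p (its longer probe only, 2 pairings) and 0.95 to 1.18 for miR-34b-5p (4 pairings). The groups did not overlap in any of the 6, which share probes and include the brightest-probe pairing of each difference given above. Most of the spread in these differences came with the Sham arrays, where the SD was 0.31 for the first and 0.22 for the second, against 0.05 in UUO for each.

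Within the locus, miR-34c-5p changed by 0.37 ± 0.05 (SE) more than miR-34b-5p with the brightest probes (exact permutation test, adjusted p = 0.0286, n = 4 per group). That difference depended on the probe of miR-34b-5p. With the shorter miR-34b-5p probe and the same miR-34c-5p probe it was 0.17 ± 0.06 (SE), and the groups overlapped (exact permutation test, adjusted p = 0.0935 over 12 pairings, n = 4 per group). Pairings with the shorter miR-34c-5p probe are cut by the floor on 3 Sham arrays and are not read here. With normexp it was −0.030 (exact permutation test, adjusted p = 0.429). Normexp adds an offset of 50 to every spot, which shrinks the change of a dimmer probe more. The unscaled miR-34c-5p means were 23.7 in Sham and 61.5 in UUO, and those of miR-34b-5p were 53.9 and 108. The normexp value therefore cannot show whether the 2 products differed. Because of the dependence on the miR-34b-5p probe, a difference in change between the 2 products was not settled by these arrays.

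How large the changes were depended on the processing, since the median change of all tested miRNAs ran from −0.23 to 0.26 over 10 ways of processing the arrays. miR-34c-5p was called higher in all 10, with log2 changes from 0.36 (normexp, whose offset exceeds the Sham signal of its probe) to 1.39 (scaling to the dmr control features, chosen after the data were seen). With a doubled floor, every Sham value of miR-34c-5p was raised to the floor, so its change of 0.97 in that setting depends on the floor. miR-34b-5p was likewise called higher in all 10, from 0.39 to 1.03. miR-34a-5p ran from −0.49 to 0.05. It was called lower with the total intensity per miRNA (−0.49 ± 0.15 (SE), limma adjusted p = 0.0221) and with the deposited ratio table (−0.45 ± 0.15 (SE), limma adjusted p = 0.0291), and its change was above 0 without scaling (0.031) and with the dmr scaling (0.046). Measured from the median of all tested miRNAs in the same processing, miR-34a-5p was below it in 10 of 10, by 0.14 to 0.30, and the other members were above it in 10 of 10. All 10 use the same arrays, and subtracting the median takes out most of a scaling factor, so they are not separate support. In the main processing miR-34a-5p stood at −0.23 from the median, where the SE of its change was 0.17.

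**Figure D3:**
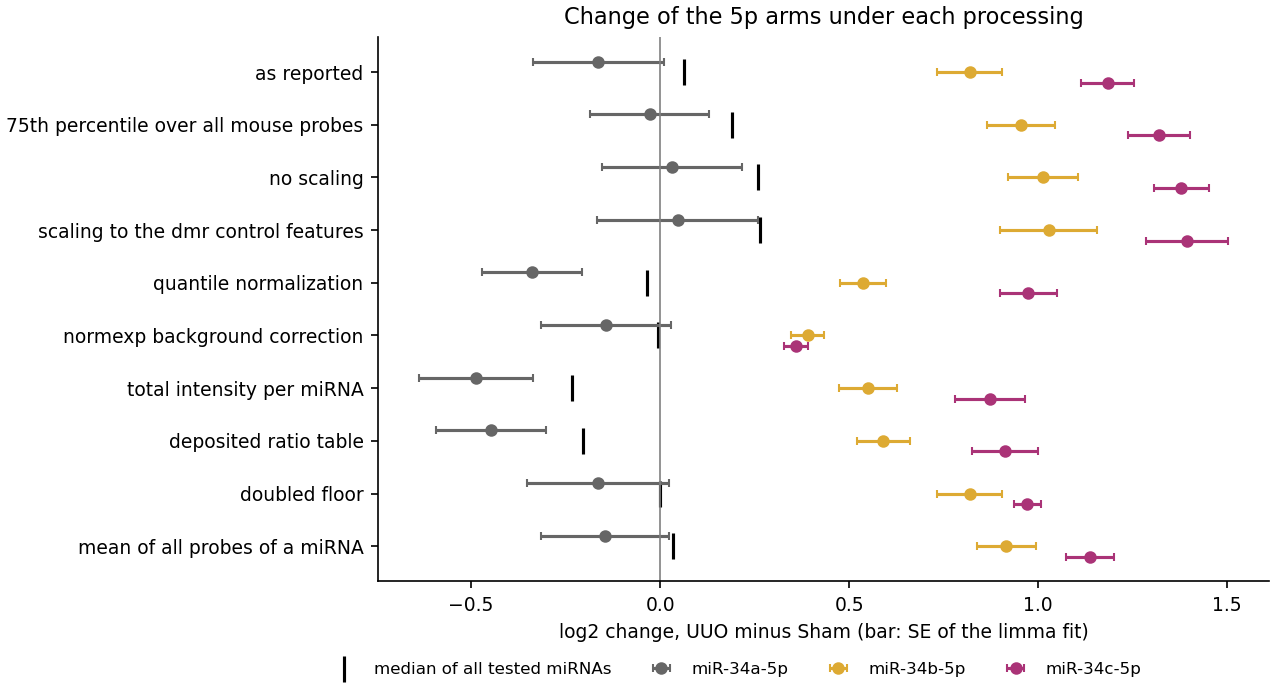
Log2 change of the 3 tested members (UUO minus Sham, bars: SE of the limma fit) under 10 ways of processing, with a black tick for the median change of all tested miRNAs. miR-34b-5p and miR-34c-5p stay right of 0 in every row, from 0.36 to 1.39, while miR-34a-5p moves between −0.49 and 0.05 and stays left of the tick.

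miR-34a-5p stood out among the members by its spread within the Sham group. Its highest Sham value was 1.67-fold its lowest, against 1.15-fold in UUO, 1.25-fold for miR-34b-5p in Sham and 1.21-fold for miR-34c-5p in Sham. The SD of its Sham values was 0.38 on the log2 scale, rank 39 of 408, where the median over tested miRNAs was 0.11. Its UUO SD was 0.09, rank 255 of 408. Between the 13 to 15 spots of a miR-34a-5p probe on 1 array, the coefficient of variation was 1.67 to 4.22%. In unscaled signal the longer probe read 1343, 863, 897 and 1509 on Sham 1, 2, 3 and 8, and 1042 to 1208 on the UUO arrays, with means of 1153 and 1146.

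The same split of the Sham arrays was seen beyond this family. Sham 1 and 8 were both above Sham 2 and 3 for 188 of the 408 tested miRNAs, with a gap of at least 0.5 on the log2 scale for 16 of them, and miR-34a-5p ranked 14 by that gap. The opposite split was found for 39 miRNAs, and 0 had a gap of 0.5. Sham 1 and 8 lay in columns 1 and 4 of the slide and Sham 2 and 3 in columns 2 and 3. UUO 1 and 4 lay in columns 1 and 4 too, and both were above UUO 2 and 3 for 58 miRNAs, with a gap of 0.5 for 0 of them. The change of miR-34a-5p was −0.27 without Sham 2 and −0.03 without Sham 8, and it was not called without any 1 of the 8 arrays (lowest limma adjusted p = 0.191).

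By a fixed rule, the 5 tested miRNAs with the most similar profile were found for each tested member from the root mean square difference of centred log2 signals over the 8 arrays. For miR-34a-5p these were miR-9-5p (0.09), miR-7056-5p (0.16), miR-10a-5p (0.16), miR-9-3p (0.16) and miR-210-3p (0.17), against a median of 0.34 over all miRNAs. The closest, miR-9-5p, a miRNA best known from neural tissue, was at −2.45, −3.15, −3.34 and −2.48 in Sham 1, 2, 3 and 8 and between −3.06 and −2.91 in UUO. It shared the high values on Sham 1 and 8. miR-210-3p, a target of hypoxia signalling, was at −2.21, −3.15, −3.14 and −2.38 in the Sham arrays, also with Sham 1 and 8 above Sham 2 and 3. miR-7056-5p was at the floor on 6 arrays, so its similarity rests on Sham 1 and 8.

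**Figure D4:**
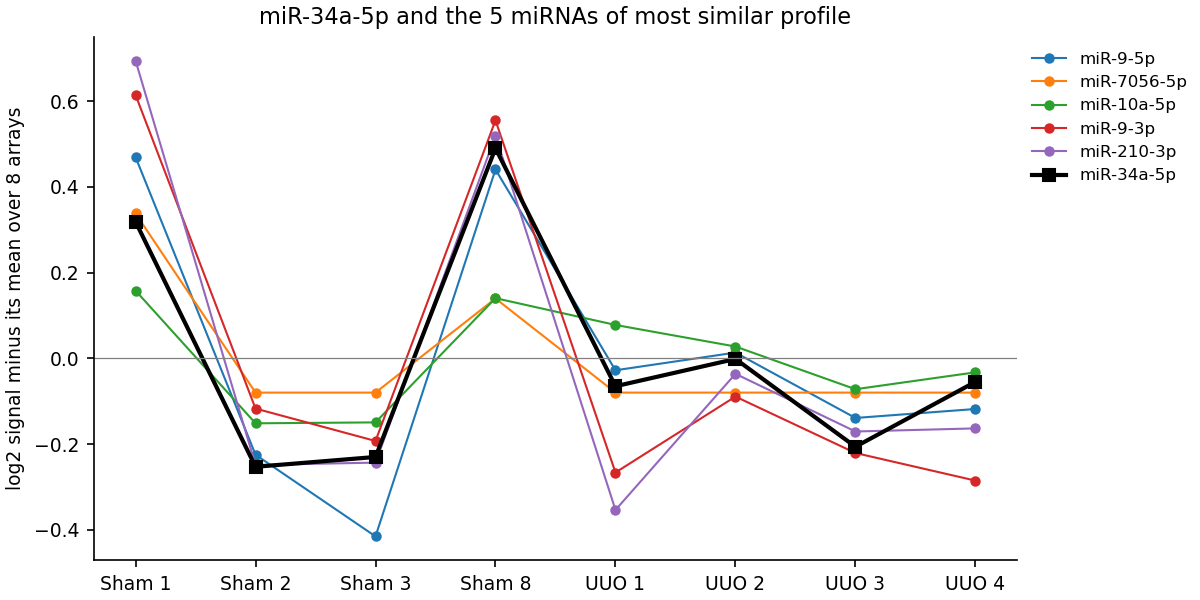
Log2 signal of miR-34a-5p (black) and of the 5 miRNAs with the smallest root mean square difference from it, each minus its own mean over the 8 arrays. All 6 lines are higher on Sham 1 and Sham 8 than on Sham 2 and Sham 3 and vary less among the UUO arrays; miR-7056-5p is flat where it sits at the floor.

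For miR-34b-5p the closest profiles were those of miR-19a-3p (0.05), miR-20a-5p (0.06), miR-25-3p (0.09), miR-17-5p (0.10) and miR-17-3p (0.11). Of these, 4 are products of the polycistronic miR-17 cluster, which promotes proliferation, and miR-25-3p comes from a paralog of that cluster. All 5 were called higher, with log2 changes from 0.66 to 0.84. For miR-34c-5p they were let-7i-5p (0.08), miR-183-5p (0.10), miR-350-3p (0.11), miR-224-5p (0.12) and miR-674-5p (0.12), also all called higher, from 1.00 to 1.09. miR-674-5p was at the floor on all 4 Sham arrays, miR-224-5p on 3 and miR-183-5p on 2 of them, so part of their likeness comes from the floor, and their UUO arrays alone carried them through the detection filter. A miRNA that rose by a similar amount is near by this measure, and nothing more is read from it.

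The 3p arms were not detected on any array. Of the 235, 233 and 237 usable spots of miR-34a-3p, miR-34b-3p and miR-34c-3p over the 8 arrays, 0 were well above background. A level below background gives no fold change, and the floor corresponded to an unscaled signal of at least 13.3, against at most 5.04 for these probes. The 3 miR-449 entries of the seed family, miR-449a-5p, miR-449b and miR-449c-5p, were likewise detected on 0 arrays. Of the 6 miRNAs in that seed family, 3 were tested, 2 were called higher and 1 was not called. Of the 6 cilia-linked miRNAs outside the members (the 5 miR-449 entries and miR-92b-3p) 0 were detected on any array, so these data hold no level for them.

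Below the detection limit, the background-subtracted signals of the 3p arms of the miR-34b and miR-34c locus were nonetheless higher on the UUO arrays. The longer miR-34c-3p probe read 1.10, 0.97, 0.14 and 1.48 on Sham 1, 2, 3 and 8 and 3.88, 3.58, 3.11 and 4.64 on UUO 1 to 4. The groups did not overlap, and the means differed by 2.88 ± 0.47 signal units (SE, limma adjusted p = 0.0031 over 3495 probes detected on no array). The longer miR-34b-3p probe read 1.37, 2.69, 2.34 and 0.53 in Sham and 5.04, 3.07, 3.95 and 4.28 in UUO, a difference of 2.35 ± 0.57 (SE, limma adjusted p = 0.0296).

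The longer miR-34a-3p probe averaged 1.42 ± 0.75 (SD, n = 4) on Sham arrays, and on UUO arrays it averaged 1.45 ± 1.06 (SD, n = 4), a difference of 0.03 ± 0.58 (SE, limma adjusted p = 0.989). Outside the members, the longer miR-449a-5p probe read 0.15, 1.65, 1.18 and 1.11 in Sham and 3.73, 4.19, 3.85 and 6.46 in UUO, a difference of 3.54 ± 0.62 (SE, limma adjusted p = 0.0042). Of the 6 probes of the 3p arms 2 were called higher and 3 had every UUO array above every Sham array, against 3.69% and 6.21% of all probes detected on no array. None was called lower and none had every UUO array below every Sham array, against 1.66% and 3.32%. After the 75th percentile scaling, where 3.32% of such probes were called higher, miR-34c-3p (limma adjusted p = 0.00555) and miR-449a-5p (limma adjusted p = 0.00656) were still called and miR-34b-3p was not (limma adjusted p = 0.0739).

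These probes were examined after the data were seen, and the 15 spots of the longer miR-34c-3p probe on 1 array had SDs of 1.22 to 2.67 signal units. The shorter probes of miR-34c-3p (limma adjusted p = 0.341), miR-34b-3p (limma adjusted p = 0.133) and miR-449a-5p (limma adjusted p = 0.0834) were not called. Among the miR-449 probes, only the longer miR-449a-5p probe was called. The target of the longer miR-34c-3p probe had 5 mismatches to the Mir34b hairpin and that of the longer miR-34b-3p probe 5 to the Mir34c hairpin. The target of the longer miR-449a-5p probe had 7 mismatches to the Mir34a hairpin, 8 to Mir34c and 9 to Mir34b.

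**Figure D5:**
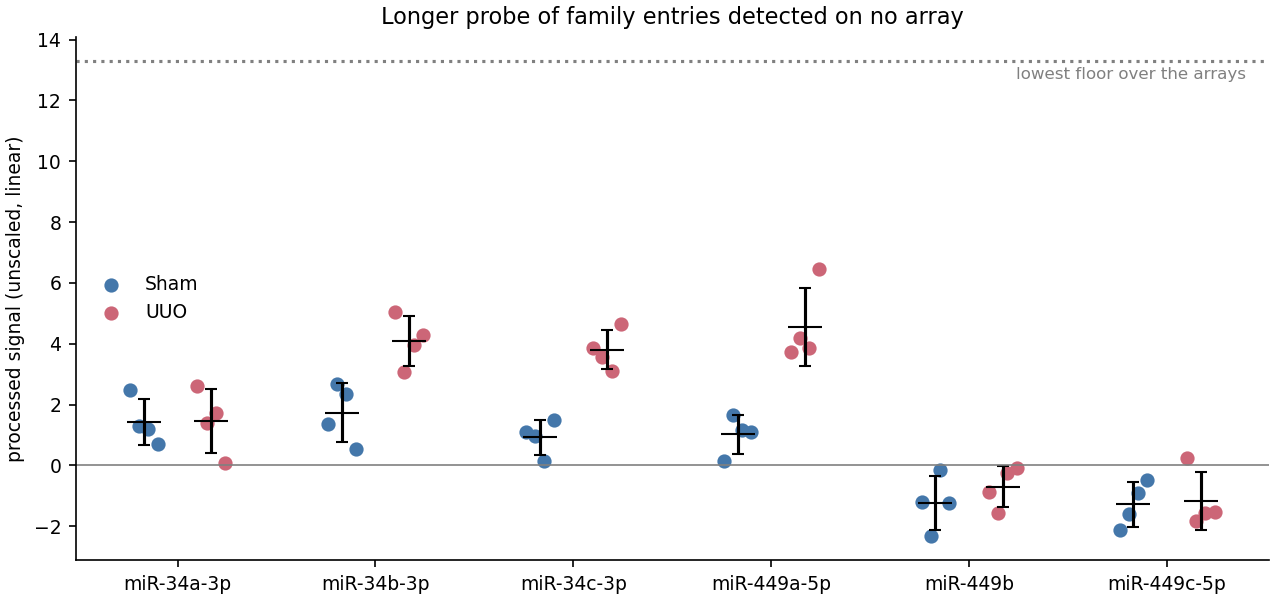
Unscaled processed signal of the longer probe of 6 family entries that were detected on no array, Sham in blue and UUO in red, with mean and SD (n = 4). miR-34b-3p, miR-34c-3p and miR-449a-5p read higher on all UUO arrays than on all Sham arrays, miR-34a-3p does not, and the highest point is 6.46, below the dotted line of the lowest floor, 13.3.

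Other miRNAs reported to be linked to p53 moved both ways. The list was chosen with earlier results of these data known, so its counts are not independent support. Of 17 listed, 15 were tested, 8 were called higher, 4 lower and 3 not called, where 39.7% of all tested miRNAs were called higher and 27.7% lower. The median log2 change was 0.24, against 0.06 for all tested miRNAs. The list mixes miRNAs said to be activated by p53 with others said to be repressed by it. Neither these counts nor the median therefore has a direction with respect to p53. Those said to be activated by p53 or matured with its help included miR-192-5p (−1.14 ± 0.11, SE) and miR-194-5p (−1.08 ± 0.11, SE), which are abundant in the tubule and fell (limma adjusted p = 4.38e-05 and 4.65e-05). miR-145a-5p was at −0.15 ± 0.07 (SE, limma adjusted p = 0.093), miR-143-3p rose (0.24 ± 0.07, SE, limma adjusted p = 0.0191), and miR-107-3p fell (−0.61 ± 0.07, SE, limma adjusted p = 8.09e-05). Further along the list, miR-15a-5p (0.22) and miR-16-5p (0.50) rose, miR-22-3p fell (−0.41), and miR-200c-3p (0.25) and miR-141-3p (0.16) were not called. miR-215-5p, a close relative of miR-192-5p, was detected on 0 arrays, and miR-605-5p was not matched. All 5 listed members of the miR-17 cluster, which p53 is reported to repress, were among the 8 that rose, from 0.50 (miR-92a-3p) to 1.75 (miR-18a-5p).

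Marker miRNAs of several cell types differed between the groups on the same arrays, and their counts below stand beside the 39.7% of all tested miRNAs called higher and the 27.7% called lower. The marker lists were chosen with earlier results of these data known, so these counts are not independent support for a shift in cell types. miR-511-3p among the leukocyte markers and miR-214-5p among the fibroblast markers were detected on 0 Sham arrays. They entered the test only through the UUO arrays, which favours a higher value in UUO, so their calls add no support. All 8 leukocyte markers were called higher, and their summed scaled signal over detected members was 2.39 to 2.83 in Sham and 8.88 to 9.97 in UUO. All 5 fibroblast markers were called higher, with sums of 3.72 to 4.18 in Sham and 13.2 to 15.8 in UUO. All 4 kidney tubule markers fell, with sums of 43.1 to 44.7 in Sham and 19.4 to 24.0 in UUO, so the labelled tissue expressed its defining miRNAs in both groups. Of 5 general epithelial markers 0 were called higher, 3 fell and 2 were not called, and sums were 22.9 to 25.7 in Sham and 18.6 to 21.1 in UUO. Of 2 endothelial markers 1 fell and 1 was not called (12.5 to 13.2 in Sham, 10.67 to 12.4 in UUO), and of 3 red blood cell markers 2 fell and 1 was not called (3.68 to 5.46 in Sham, 2.09 to 3.84 in UUO). The part of these shifts in the rise of miR-34b-5p and miR-34c-5p was not tested.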

How the data were processed

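The deposited intensity of each spot was made with Agilent Feature Extraction 10.7.3.1, per the file headers, which record spatial detrending switched on, multiplicative detrending switched off and probe positions on mm9. The total intensity per miRNA in the same files is 0.1 where nothing was detected. For the 403 miRNAs with a total above 0.1 on all 8 arrays, the deposited ratio equalled this total times 1 factor per array over the miRNA's median (largest deviation 0.000772%). The ratios of the other miRNAs were not checked. How the factor per array was set is unknown, and its log2 values are higher in Sham than in UUO. Control spots and outlier spots (2.64 to 2.95% per array) were left out and a probe's spots averaged. Scaling used 623 probes detected on all 8 arrays, before the floor and log2. Fits used limma 3.58.1 in R 4.3.3. On simulated data with 408 miRNAs this fit recovered 81.6% of log2 changes of 0.5 and 96.6% of changes of 1, and 3.17% of its calls were false. These shares are over all simulated miRNAs. They do not give the power for miR-34a-5p, whose Sham SD of 0.38 was above the median of 0.11. Precision is limited by 4 arrays per group. Members are described in full, list members in list order, and the 5 nearest profiles per tested member. The members and lists were chosen with earlier results of these data known. Alternatives covered background correction, scaling, floor, filter, probe summary, variance model, blocks and left-out arrays. Samples sharing a number did not deviate together (correlations −0.0008, 0.12 and −0.30), and the main fit did not pair them. The shared numbers 1 to 3 also match slide columns 1 to 3. So few correlations cannot show that the numbers carry no pairing.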

Additional observations from a re-analysis of the deposited data

Results flagged for a closer look

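Signal appeared above the Sham level in probes outside the main measurement, those detected on no array, for 3 entries of the family. The longer probe of miR-34c-3p was 2.88 signal units higher in UUO, that of miR-34b-3p 2.35 and that of miR-449a-5p 3.54, each with all UUO arrays above all Sham arrays. The shorter probe of each was not called. Among 3495 such probes 129 were called higher and 58 lower, the median difference was 0.0382 units and 508 had an unadjusted p under 0.05. What part spot noise or related sequences have in these differences was not tested.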

How the results depend on the processing

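The calls of miR-34b-5p and miR-34c-5p held in all 22 alternatives run (highest limma adjusted p = 0.00423 and 0.000888), and that of miR-34a-5p changed as described. Without any 1 array their changes ran from 0.77 to 0.88 and from 1.15 to 1.24. Over all tested miRNAs 162 were called higher and 113 lower; 217 were lower with the total intensity (109 higher), 207 with the deposited ratios (118 higher) and 64 with the dmr scaling (192 higher), and leaving out 1 array gave 147 to 171 higher and 106 to 117 lower. The sign of the miR-34a-5p change turned without scaling (0.031) and with the dmr scaling (0.046). The difference between miR-34c-5p and miR-34b-5p was −0.030 with normexp and 0.17 with the shorter miR-34b-5p probe. It was 0.079 with the shorter probe of both (the floor cuts this value on 3 Sham arrays) and 0.15 with a doubled floor. The normexp value cannot decide on a difference, since its offset of 50 shrinks the change of the dimmer miR-34c-5p probe more. The cause of the value with the shorter miR-34b-5p probe was not tested. Leaving out 1 array, the differences ran from 1.26 to 1.46 (miR-34c-5p less miR-34a-5p), 0.91 to 1.05 (miR-34b-5p less miR-34a-5p) and 0.33 to 0.40 (miR-34c-5p less miR-34b-5p), where the smallest possible p is 0.0571. With the replicate block on numbers 1 to 3, they were 1.28, 0.92 and 0.36 (exact sign-flip permutation p = 0.25, the smallest possible), and with the slide column as a block 1.35, 0.98 and 0.37 (at the smallest p that 4 columns allow, above the threshold); the replicate block gave 142 higher and 84 lower over all tested miRNAs and changed no call of a member. Signals under the floor, as in the shorter miR-34c-5p probe on 3 Sham arrays and in all 3p arms, give no fold.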

Other observations

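The split of Sham 1 and 8 above Sham 2 and 3 seen for miR-34a-5p was strongest, among the 408 tested miRNAs, in miR-205-5p and miR-31-5p. Both were named after their values were seen. miR-205-5p, known from stratified epithelium and urothelium, was at −2.68, −4.89, −4.64 and −2.73 in Sham 1, 2, 3 and 8, and at −4.84, −2.15, −2.58 and −2.84 in UUO 1 to 4. miR-31-5p was at −3.36, −4.35, −4.49 and −3.33 in the Sham arrays and between −2.58 and −2.17 in the UUO arrays. miR-96-5p, a miRNA of sensory and other epithelia, was at −2.19, −3.10, −2.94 and −2.29 in the Sham arrays, and miR-148a-3p at −1.95, −2.63, −2.68 and −1.85. For miR-205-5p the UUO arrays were uneven too, with UUO 1 near the floor, while the UUO values of miR-34a-5p were close together.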
